A study of Mus musculus with 24 samples.

Results

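Scrib, Apbb1, Apbb2, Rragb and Wdr7 are 5 genes whose transcripts carry alternative exons that were included to different degrees in WT and slow/slow cells. They were chosen on measured values: Scrib, Apbb1 and Wdr7 for an exon difference between the genotypes in neurons, and Apbb2 and Rragb for an exon difference in PSA-NCAM+ cells. The values of each gene in the comparison that chose it are therefore given as a description, with no test. The 5 genes were taken from 21553 genes with counts, and all 34 of their exon events were taken from the 54141 exon events of the per-sample splicing table. Poly(A)+ RNA had been sequenced from E14 mouse embryonic stem cells (ESCs) and from cells differentiated from them in culture, in 24 samples that form 8 groups of 3 replicates. RNA polymerase II depends for its catalytic core on Polr2a, which WT cells carry in its normal form and slow/slow cells with the R749H substitution on both alleles, placed there by gene targeting. The 4 stages were ESCs kept in 2i medium, neural progenitor cells (NPCs) at day 7, day 10 cells purified on beads for a sugar-modified adhesion molecule of young neurons (PSA-NCAM+ cells), and neurons that had been replated at day 7 and kept for 14 further days. For the NPC and PSA-NCAM+ stages, slow/slow cells had been plated at 3 times the density of WT cells, so genotype and plating density cannot be told apart there. For the neurons the labels give no density of the cultures before replating, so whether it differed between the genotypes is not known. The paper's methods describe 3 independent differentiation experiments for the RNA of ESCs, NPCs and neurons, and do not name the PSA-NCAM+ cells there. The number of targeted clones behind the slow/slow cells is not given in the sources used here.

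The products of the 5 genes act at the membrane, at the lysosome and in signalling from the amyloid precursor protein APP. Scrib encodes Scribble, a scaffold protein that places cell junctions and sets apical and basal polarity, and Apbb1 and Apbb2 encode Fe65 and Fe65L1, adaptors that bind the cytoplasmic tail of APP. Rragb encodes RagB, a GTPase that brings the growth kinase complex mTORC1 to the lysosome when amino acids are present, and Wdr7 encodes a subunit of Rabconnectin-3, which regulates the proton pump (V-ATPase) of synaptic vesicles and endosomes. Neurons are known for exons, some of them only a few bases long, that are included there and skipped in most other cells. The share of a gene's transcripts that include an exon is given as PSI (percent spliced in), which runs from 0 to 100 and rests on the reads over the exon's junctions.

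Of the 34 exon events, 28 passed the coverage and junction filters in both genotypes of at least 1 stage, and 7 of these had group means that spanned 10 points or more over the groups in which all 3 samples passed. Those were all 8 groups for 5 of the exons, 6 groups for Apbb2 and 2 for Wdr7. The smallest span inside that limit was 16.5 points, for an 84-nt exon of Scrib, and the largest outside it was 7.1 points, for the other exon event of Rragb. The 7 exons comprised 3 exons of Scrib and 1 exon each of Apbb1, Apbb2, Rragb and Wdr7. Each of the 7 lies in coding sequence and has a length that is a multiple of 3, so that skipping it keeps the reading frame. Among the 28070 exon events tested between the genotypes, 42.2% had such a length, and among the 12.1% of them with a span of 10 points or more the share was 55.1%. The 5 genes were chosen for exon differences, so the 7 exons are a selected set and were not tested against these shares.

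The sequences of 4 of these exons are shown, 1 for each of 4 genes, because the results turn on them. They are the GENCODE vM21 transcript sequences on GRCm38, given in the direction of the gene, with the exon in capitals and the last 20 bases of the exon before it and the first 20 bases of the exon after it in lower case. Each exon was matched by its own length and the lengths of both flanking introns.
Scrib 75-nt exon: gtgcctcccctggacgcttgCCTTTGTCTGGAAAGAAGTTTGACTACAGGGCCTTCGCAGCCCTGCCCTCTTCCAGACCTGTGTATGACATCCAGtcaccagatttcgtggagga
Apbb1 6-nt exon: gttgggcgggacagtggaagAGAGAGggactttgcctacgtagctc
Apbb2 63-nt exon: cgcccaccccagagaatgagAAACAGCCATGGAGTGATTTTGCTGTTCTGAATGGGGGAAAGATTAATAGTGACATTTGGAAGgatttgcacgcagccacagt
Rragb 84-nt exon: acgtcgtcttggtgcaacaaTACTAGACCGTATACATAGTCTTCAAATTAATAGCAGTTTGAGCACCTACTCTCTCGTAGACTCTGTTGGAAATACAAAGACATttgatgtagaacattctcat

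The 75-nt exon of Scrib is exon 36 of 38, on the minus strand at chr15:75878352-75878426 in mm9, the assembly of the deposited files, and at chr15:76047922-76047996 in GRCm38. The Apbb1 microexon is exon 8 of 14, on the minus strand at chr7:112714460-112714465 in mm9 and chr7:105565946-105565951 in GRCm38. The Apbb2 exon is exon 7 of 18, on the minus strand at chr5:66783512-66783574 in mm9 and chr5:66392273-66392335 in GRCm38. The Rragb exon is exon 4 of 11, on the plus strand at chrX:149582995-149583078 in mm9 and chrX:153148452-153148535 in GRCm38. The exons of the compact genes had short introns, of 118 bases upstream and 249 downstream for the 75-nt exon of Scrib and of 99 and 298 bases for the Apbb1 microexon. The introns of the other genes were longer, at 7740 bases upstream and 415 downstream for Apbb2 and 4376 and 1826 bases for Rragb. The base composition of the 4 exons shown differed too, from a G and C content of 53.3% in the 75-nt exon of Scrib to 36.9% in the Rragb exon.

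The depth was 32974432 to 104466886 counts per sample, and expression is given as CPM, the count relative to the library size after TMM scaling. A list of 5 neuron markers (Map2 had no match) summed to 2540 to 2830 CPM in WT neurons and 1580 to 1660 CPM in slow/slow neurons, to 74.1 to 80.4 and 154 to 175 CPM in NPCs, and to 55.3 to 73.6 and 164 to 315 CPM in PSA-NCAM+ cells. In neurons the markers of this list differed to unlike degrees. Dcx was at 1060 to 1150 CPM in WT and 935 to 1010 CPM in slow/slow neurons. Stmn2 was at 1030 to 1180 and 504 to 515 CPM, and Syn1 at 212 to 236 and 59 to 62.3 CPM. The 5 pluripotency markers summed to 1890 to 1960 CPM in WT NPCs and 1110 to 1230 CPM in slow/slow NPCs and to 1300 to 1780 and 678 to 705 CPM in PSA-NCAM+ cells. The 4 neural progenitor markers summed to 205 to 222 CPM in WT and 408 to 525 CPM in slow/slow NPCs, and to 581 to 793 and 1260 to 1540 CPM in PSA-NCAM+ cells. Sox1 of that list had no match. In ESCs this list summed to 248 to 293 CPM in WT and 291 to 328 CPM in slow/slow cells. The neuron list summed there to 170 to 203 and 214 to 249 CPM. Both lists were thus higher in WT ESCs than in WT NPCs, mostly through Vim and Stmn2. In WT PSA-NCAM+ cells the neuron list was lower still, and the progenitor list was higher than in WT ESCs and NPCs. The neuron list therefore did not mark the WT PSA-NCAM+ cells as young neurons. In neurons 4 mesenchyme markers summed to 210 to 265 CPM in WT and 530 to 558 CPM in slow/slow cells, and 4 astrocyte markers to 30.8 to 39.4 and 9.64 to 12.2 CPM. Most of the astrocyte sum was Aldh1l1, at 28.2 to 35.3 CPM in WT and 6.03 to 8.15 CPM in slow/slow neurons. Aldh1l1 was higher still in WT ESCs, at 48.8 to 56.8 CPM. Aqp4 went the other way in neurons, at 1.34 to 1.86 and 3.21 to 3.86 CPM, and Gfap and S100b were at 2.15 CPM or below. The summed marker levels moved with genotype, and their part in the differences between the genotypes at those stages was not tested. In bulk samples fewer cells of a type and less RNA per cell cannot be told apart. Replicate 1 of the PSA-NCAM+ cells stood apart in both genotypes: its correlation with the other replicates of its group was 0.978 for WT and 0.960 to 0.965 for slow/slow cells, against at least 0.994 for every other pair of replicates in a group. It also held the highest summed endoderm markers of its group, with 135 CPM for WT and 130 CPM for slow/slow. The same was true of the summed mesenchyme markers (246 and 194 CPM) and oligodendrocyte lineage markers (44.7 and 43.2 CPM).

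**Figure D1:**
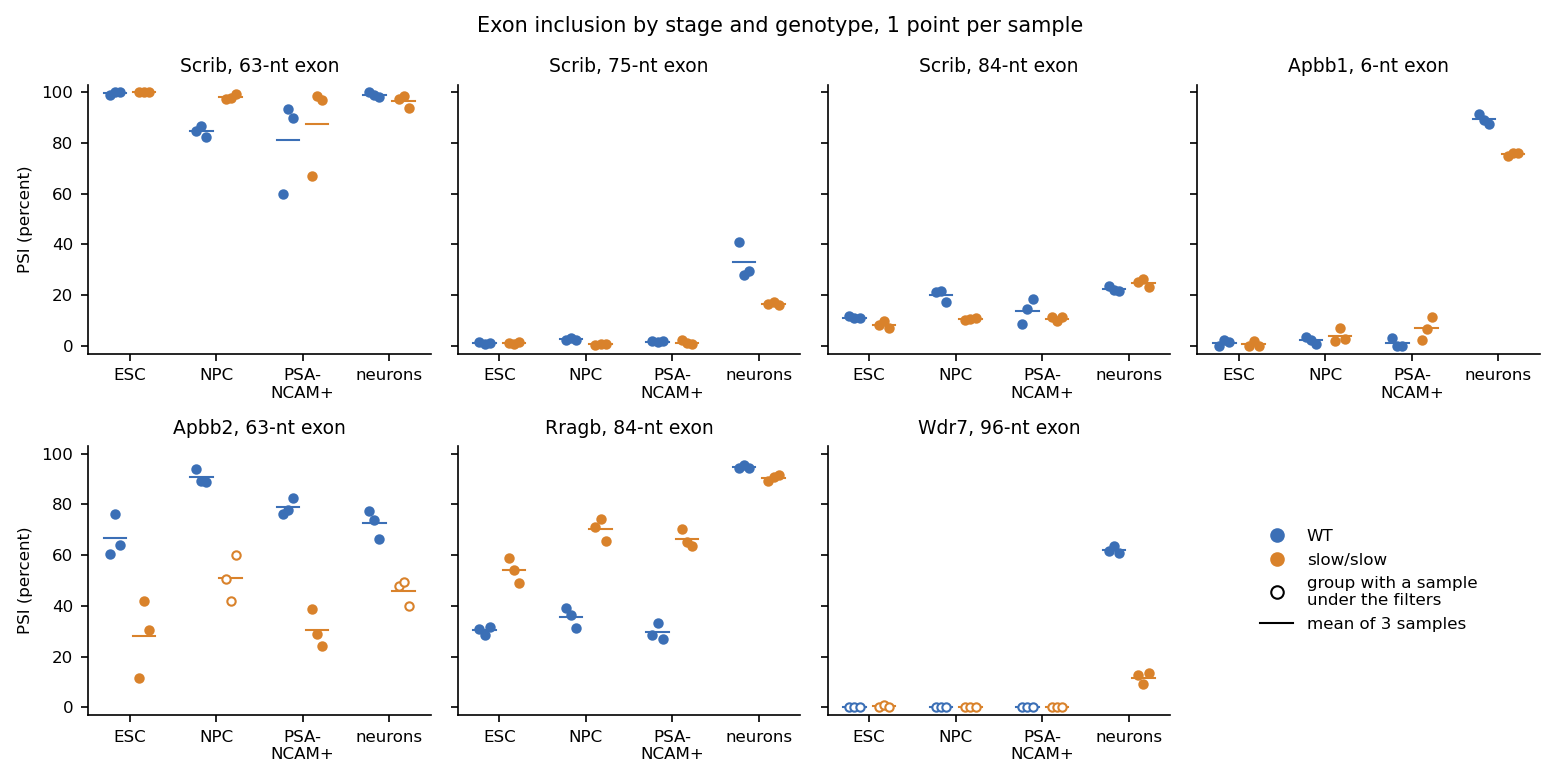
PSI in percent of the 7 exons, 1 point per sample, in WT (blue) and slow/slow (orange) cells at the 4 stages, with the mean of 3 samples as a line and open points for groups with a sample under the filters. Before the neuron stage the Wdr7 exon was at 1.1 or below, the 75-nt exon of Scrib at 3.2 or below and the Apbb1 microexon at 11.4 or below, and the Rragb exon of slow/slow cells lay above that of WT cells at the first 3 stages and below it in neurons.

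The 75-nt exon of Scrib, near the end of the gene, was all but absent before the neuron stage. Its PSI lay between 0.5 and 3.2 in each of the 18 samples of ESCs, NPCs and PSA-NCAM+ cells. In neurons it was 41.1, 27.8 and 29.7 in WT cells (32.9 ± 7.2, SD, n = 3) on 383, 475 and 675 reads, and 16.6, 17.2 and 16.1 in slow/slow cells (16.6 ± 0.5, n = 3) on 406, 620 and 242 reads. Every WT neuron sample was thus above every slow/slow one, by 16.2 points in the mean, in the comparison for which the gene was chosen. No difference between the genotypes was called at the other 3 stages.

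The 84-nt exon of Scrib was included at a low level at every stage. In NPCs its PSI was 21.2, 21.6 and 17.3 in WT cells (20 ± 2.4) on 614, 1018 and 852 reads and 10.3, 10.6 and 10.8 in slow/slow cells (10.5 ± 0.2) on 815, 487 and 417 reads. The groups did not overlap, and the difference of -9.5 points had a posterior probability of 1.00 but missed the minimum of 10 points. Without replicate 3 of the WT NPCs it was -10.9 points and was called, and limma on the reads gave an FDR of 0.01 for it. In neurons the samples ran from 21.6 to 23.5 in WT cells and from 23.3 to 26.2 in slow/slow cells, and these ranges overlap. In ESCs the difference was -2.8 points.

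The 63-nt exon of Scrib, the only one of the 3 that most transcripts include, was skipped in part in WT NPCs. Its PSI there was 84.5, 86.7 and 82.5 (84.6 ± 2.1) on 428, 658 and 502 reads, against 97.3, 97.7 and 99.2 (98.0 ± 1.0) in slow/slow NPCs on 508, 253 and 253 reads. The exon rose by 13.5 points in slow/slow NPCs, with a posterior probability of 1.00 and no overlap between the groups. By limma the FDR was 0.634 with no block and 0.00869 with the replicate number as a block among the PSA-NCAM+ samples, where it pairs the samples. In ESCs all 6 samples were between 98.9 and 100.

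At the PSA-NCAM+ stage this exon showed the pairing of replicates by number. Its PSI was 59.8, 93.5 and 89.8 in WT cells and 66.8, 98.3 and 96.9 in slow/slow cells, so replicate 1 was far below the others in both genotypes and slow/slow was above WT within each number. The mean difference of 6.3 points was not called (posterior probability 0.658), and it was 6.0 points without replicate 1 of both genotypes, and -4.3 points with only the WT replicate 1 left out. By limma its FDR was 0.192 with no block and 0.0114 with the block among the PSA-NCAM+ samples, though the difference stayed under the minimum of 10 points. Against ESCs, WT cells fell by 15.1 points in NPCs and by 18.6 points in PSA-NCAM+ cells, the latter with a posterior probability of 0.981. That last call rests on replicate 1, since without it the difference was -8.0 points. Limma with no block gave FDRs of 0.499 and 0.416 for these falls, and 0.00527 and 0.00729 with the block among the PSA-NCAM+ samples.

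The 6-nt microexon of Apbb1 was a neuron exon. In ESCs, NPCs and PSA-NCAM+ cells its PSI ranged from 0 to 3.5 in WT samples and from 0 to 11.4 in slow/slow samples. In neurons it was 91.2, 89.2 and 87.5 in WT cells (89.3 ± 1.9) on 1232, 1139 and 1775 reads and 74.9, 75.9 and 76.1 in slow/slow cells (75.7 ± 0.7) on 733, 968 and 328 reads. The groups did not overlap and differed by 13.6 points, in the comparison that chose the gene, so that most Apbb1 transcripts held the microexon in neurons of either genotype. Among PSA-NCAM+ cells the values were 3.3, 0 and 0 in WT cells and 2.5, 6.7 and 11.4 in slow/slow cells. That difference of 5.8 points, with a posterior probability of 0.939, was not called.

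The 63-nt exon of Apbb2 was lower in slow/slow cells at every stage, on few reads. In PSA-NCAM+ cells, the stage that chose it, PSI was 76.3, 77.8 and 82.5 in WT cells (78.9 ± 3.2) on 119, 56 and 73 reads and 38.7, 29.0 and 24.1 in slow/slow cells (30.6 ± 7.5) on 43, 69 and 49 reads. No sample of one genotype reached the other, and the means differed by -48.3 points. In ESCs it was 60.3, 76.2 and 63.9 in WT cells (66.8 ± 8.3) on 93, 37 and 59 reads and 11.6, 41.8 and 30.6 in slow/slow cells (28.0 ± 15.3) on 24, 39 and 32 reads. The exon thus fell by 38.8 points in slow/slow ESCs with a posterior probability of 0.982, and the groups did not overlap. Limma did not call that fall, with an FDR of 0.0552, or 0.0653 with the block among the PSA-NCAM+ samples.

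At the other stages the Apbb2 exon of slow/slow cells missed the coverage filter in part and was not tested. In NPCs it was 93.8, 89.1 and 89.0 in WT cells (90.7 ± 2.8) and 50.7, 41.9 and 60 in slow/slow cells (50.9 ± 9.0), where only 1 of 3 samples passed, on 52, 22 and 16 reads. In neurons it was 77.5, 73.7 and 66.2 in WT cells (72.5 ± 5.8) and 47.7, 49.5 and 40.0 in slow/slow cells (45.7 ± 5.0), where 2 of 3 samples passed. Both genotypes were apart at both stages. With the slow/slow neuron sample of 28 reads left out, replicate 3, the neuron difference could be tested and was called. Within WT cells the exon rose from ESCs to NPCs by 23.9 points (posterior probability 0.996, limma FDR 0.00785), and in neurons it was 5.7 points above ESCs, which was not called.

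The 84-nt exon of Rragb, which makes the long form of RagB, was more included in slow/slow than in WT ESCs and NPCs and was in nearly all transcripts of neurons of either genotype. In ESCs PSI was 30.8, 28.6 and 31.8 in WT cells (30.4 ± 1.6) on 140, 90 and 112 reads and 58.7, 54.3 and 49.2 in slow/slow cells (54.1 ± 4.7) on 142, 172 and 100 reads. In NPCs it was 39.3, 36.5 and 31.4 in WT cells (35.7 ± 4.0) on 156, 185 and 199 reads and 71.0, 74.1 and 65.7 in slow/slow cells (70.3 ± 4.2) on 483, 262 and 208 reads. The genotypes did not overlap at either stage. The exon rose in slow/slow cells by 23.7 points in ESCs (posterior probability 0.999, limma FDR 0.00159) and by 34.5 points in NPCs (posterior probability 1.00, limma FDR 1.16e-07).

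In PSA-NCAM+ cells, the stage that chose Rragb, PSI was 28.6, 33.3 and 27.1 in WT cells (29.7 ± 3.2) on 54, 58 and 96 reads and 70.3, 65.1 and 63.5 in slow/slow cells (66.3 ± 3.5) on 126, 605 and 484 reads, a difference of 36.6 points. In neurons it was 94.3, 95.6 and 94.5 in WT cells (94.8 ± 0.7) on 649, 575 and 990 reads and 89.4, 90.6 and 91.4 in slow/slow cells (90.4 ± 1.0) on 322, 404 and 155 reads. There every slow/slow sample was below every WT sample, by 4.4 points in the mean, which was under the minimum of 10 points and was not called, although limma gave an FDR of 0.00368. The difference between the genotypes itself differed between stages, by limma: neurons minus ESCs gave -28.0 points (FDR 0.000178) and neurons minus NPCs gave -38.9 points (FDR 6.16e-07). These FDRs are for differences of logits, not of points. With WT neurons at 94.8, PSI had little room to be higher in slow/slow neurons, which limits the reading in points. Between NPCs and ESCs it differed by 10.9 points, with an FDR of 0.452. Within genotype the exon rose from ESCs to neurons by 64.4 points in WT cells and by 36.4 points in slow/slow cells, and from ESCs to NPCs by 16.2 points in slow/slow cells.

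The 96-nt exon of Wdr7 is exon 17 of 28, on the plus strand at chr18:63951450-63951545 in mm9 and chr18:63791796-63791891 in GRCm38. It lies between introns of 11838 and 2333 bases, in a gene of 281 kb. Before the neuron stage its PSI was 0 in every sample but replicate 2 of the slow/slow ESCs, at 1.1, and none of these samples passed the junction filter. The reads summed to 175 in WT ESCs and to 248 in WT PSA-NCAM+ cells, and a count of 0 on them allows an inclusion of up to 1.71% and 1.21%, while the 147 reads of slow/slow NPCs allow up to 2.04%. These limits cover counting error only.

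In neurons PSI of the Wdr7 exon was 61.6, 63.6 and 60.8 in WT cells (62.0 ± 1.5) on 383, 378 and 607 reads and 12.7, 9.1 and 13.5 in slow/slow cells (11.8 ± 2.4) on 142, 210 and 84 reads. All slow/slow neurons were far below all WT neurons, and the difference of -50.2 points was the widest of the 7 exons at any stage. It is the difference for which Wdr7 was chosen.

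The counts of calls over all exon events of the 5 genes were small. An exon was called where its mean PSI differed by more than 10 points with a posterior probability above 0.95, and all samples compared had to pass the filters. Between the genotypes, 2 of 21 events were called in ESCs (1 higher and 1 lower in slow/slow cells), where 0.809% of all events tested were called, and 2 of 24 in NPCs (both higher), beside 2.93% of all events. In PSA-NCAM+ cells 0 of the 19 events that could be tested were called by the posterior scheme, beside 0.966% of all events, and 0 by limma, with 3 at an unadjusted p under 0.05. In neurons 0 of 5 were called by the posterior scheme, beside 3.55%, and 0 by limma, with 2 at an unadjusted p under 0.05. Limma calls between groups also needed a difference of more than 10 points. In neurons the Rragb exon missed only that minimum, with a limma FDR of 0.00368. The events of the genes chosen at a stage are not among those tested there.

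Against ESCs, 2 of 26 events were called in WT NPCs (1 higher, 1 lower), 1 of 19 in WT PSA-NCAM+ cells (lower) and 1 of 7 in WT neurons (higher), beside 2.42%, 1.55% and 5.31% of all events. In slow/slow cells 1 of 20 events was called in NPCs (higher), 1 of 4 in neurons (higher) and 0 of 15 in PSA-NCAM+ cells, beside 0.763%, 3.89% and 1.7%. Those 0 of 15 stood beside 0 limma calls and 0 events at an unadjusted p under 0.05. The difference between the genotypes was itself tested between stages with limma. It was called for 1 of 4 events between neurons and ESCs and for 1 of 4 between neurons and NPCs, in both cases the Rragb exon, beside 0.4% and 3.27% of all events. It was called by limma for 0 of 20 events between NPCs and ESCs (1 at an unadjusted p under 0.05), 0 of 15 between PSA-NCAM+ cells and ESCs (0 at an unadjusted p under 0.05) and 0 of 19 between PSA-NCAM+ cells and NPCs (1 at an unadjusted p under 0.05), beside 0.401%, 0.0467% and 0.119%.

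The other 21 exon events that passed the filters barely varied. Their group means lay between 0.4 and 100, 19 had every group mean at 90 or above and 1 had every group mean at 10 or below. The largest span among them was 7.1 points. These values, too, cover only the groups in which all 3 samples passed. A further 6 events passed in no group.

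**Figure D2:**
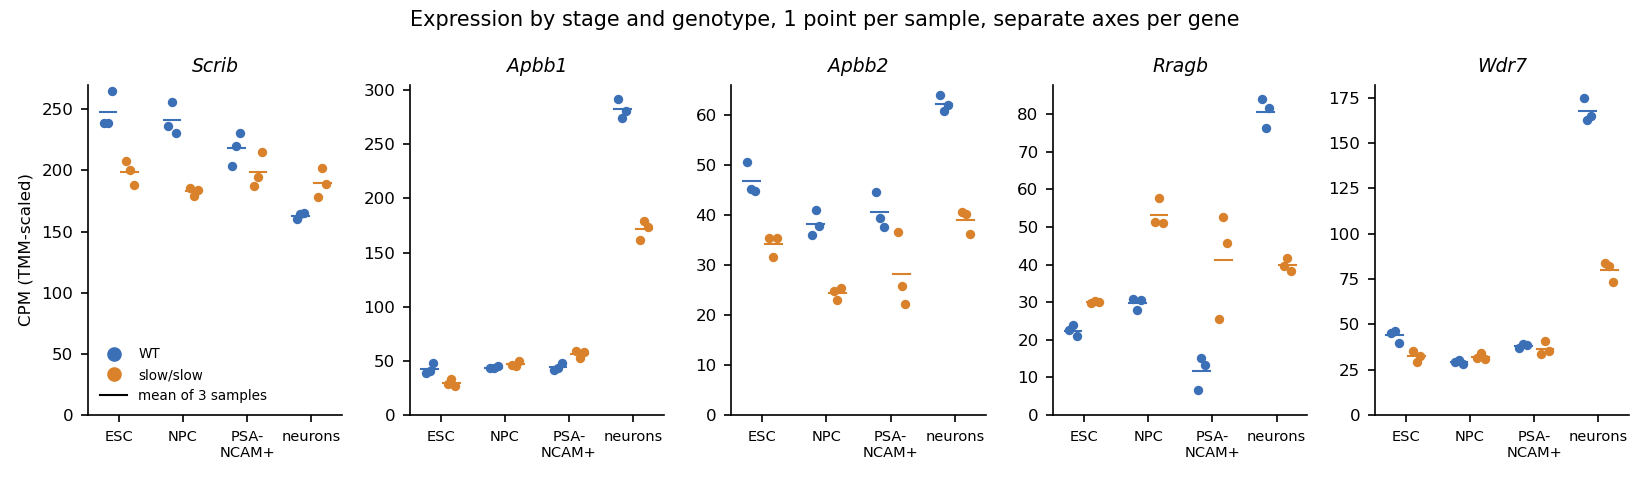
Expression of the 5 genes in TMM-scaled CPM, 1 point per sample, in WT (blue) and slow/slow (orange) cells at the 4 stages, with the mean of 3 samples as a line and a separate axis from 0 for each gene. Apbb1, Rragb and Wdr7 were highest in WT neurons, and the Apbb2 means of slow/slow cells were below those of WT cells at each stage.

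Expression of the 5 genes was compared on the counts with edgeR's quasi-likelihood test, and FDR is its Benjamini-Hochberg adjusted p over 16627 genes. Between the genotypes, 4 of 5 genes were called in ESCs, all lower in slow/slow cells, where 40.4% of all genes tested were called. In NPCs 3 of 5 were called (1 higher, 2 lower), beside 56.7%. In PSA-NCAM+ cells 1 of 3 genes that could be tested was called (higher), beside 56.7%, and in neurons 2 of 2 (both lower), beside 51.9%. Of all genes called in neurons, 45.2% were higher in slow/slow cells, and this share was 59.2% with upper-quartile scaling, which moved the median change of all genes from -0.06 to 0.08.

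Scrib was expressed at 160 to 265 CPM in every sample. In ESCs it was at 239, 239 and 265 CPM in WT cells (248 ± 15.3) and 208, 200 and 188 CPM in slow/slow cells (199 ± 9.9), and in NPCs at 236, 256 and 231 CPM (241 ± 13.1) and 186, 179 and 184 CPM (183 ± 3.33). The genotypes did not overlap at these stages. Scrib fell in slow/slow cells by 0.32 on the log2 scale in ESCs (SE 0.07, FDR 0.00119) and by 0.40 in NPCs (SE 0.07, FDR 8.04e-05). PSA-NCAM+ cells of WT genotype held 204, 220 and 231 CPM and those of slow/slow genotype 187, 195 and 215 CPM, and the log2 difference was -0.13 (SE 0.07, FDR 0.112, or 0.0478 with the block among the PSA-NCAM+ samples).

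In neurons, the stage that chose Scrib, the order was the other way, with 160, 164 and 165 CPM in WT cells (163 ± 2.75) and 178, 202 and 189 CPM in slow/slow cells (189 ± 11.6), which is a log2 difference of 0.22 (SE 0.07). Scrib lies on chromosome 15, where the median log2 change of the 639 genes tested was -0.60 in ESCs, -0.57 in NPCs, -0.56 at the PSA-NCAM+ stage and -0.08 in neurons, beside -0.02, 0.01, -0.01 and -0.06 over all genes. The lower Scrib of slow/slow ESCs and NPCs thus stood beside a chromosome whose typical gene was lower by more, and the part of this in the Scrib values was not tested. For the chromosomes of the other genes, 7, 5, X and 18, the medians stayed between -0.13 and 0.15 at every stage.

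**Figure D3:**
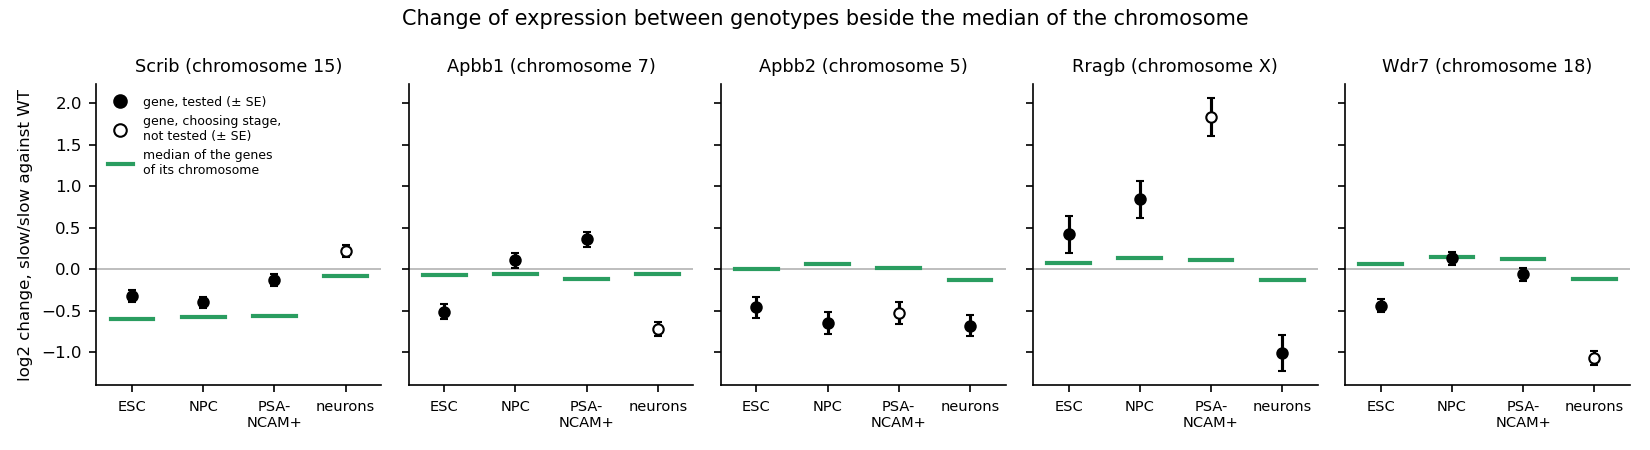
Log2 change of expression of each gene, slow/slow against WT cells, at the 4 stages (points with SE from the edgeR fit, open where the comparison chose the gene and was not tested) beside the median change of all tested genes of its chromosome (green lines). Only for Scrib do the medians of the chromosome lie far from 0, at -0.60 to -0.56 before the neuron stage.

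Apbb1 rose to its highest level in neurons in both genotypes. In ESCs it was at 38.4, 40.7 and 48 CPM in WT cells (42.4 ± 5.01) and 29, 33.7 and 26.8 CPM in slow/slow cells (29.8 ± 3.5), and it fell there by 0.51 on the log2 scale (SE 0.09, FDR 0.000123) with no overlap. In PSA-NCAM+ cells it was at 41.4, 43 and 47.9 CPM in WT cells and 58.7, 52.9 and 58.2 CPM in slow/slow cells, a rise by 0.36 (SE 0.09, FDR 0.00162), which was not called when the PSA-NCAM+ samples were fitted alone (FDR 0.0973). In NPCs the log2 difference of 0.11 (SE 0.09) was not called, at an FDR of 0.283.

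In neurons Apbb1 was at 292, 274 and 281 CPM in WT cells (282 ± 9.27) and 162, 179 and 174 CPM in slow/slow cells (171 ± 8.59), which is a log2 difference of -0.72 (SE 0.09) in the comparison that chose the gene. The groups were well apart, and so were those of the neuron markers, at 2540 to 2830 against 1580 to 1660 CPM, whose part in it was not tested. From ESCs to neurons Apbb1 rose 6.66-fold in WT cells (FDR 2.76e-16) and 5.74-fold in slow/slow cells (FDR 1.35e-15). Its genotype difference was higher in NPCs than in ESCs by 0.62 on the log2 scale (FDR 0.00115) and higher in PSA-NCAM+ cells than in ESCs by 0.86 (FDR 2.78e-05).

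Apbb2, the relative of Apbb1, had lower means in slow/slow than in WT cells at all 4 stages. In ESCs it was at 50.7, 45.2 and 44.8 CPM in WT cells (46.9 ± 3.33) and 35.5, 31.6 and 35.5 CPM in slow/slow cells (34.2 ± 2.23). In NPCs it was at 36.1, 41.1 and 37.8 CPM (38.3 ± 2.57) and 24.8, 23.1 and 25.4 CPM (24.4 ± 1.21), and in neurons at 64.1, 60.8 and 62.1 CPM (62.4 ± 1.63) and 40.7, 40.2 and 36.2 CPM (39 ± 2.47). The genotypes did not overlap at these 3 stages. Apbb2 fell by 0.46 on the log2 scale in ESCs (SE 0.13, FDR 0.00663), by 0.65 in NPCs (SE 0.13, FDR 0.000227) and by 0.68 in neurons (SE 0.13, FDR 0.000147). In PSA-NCAM+ cells, the stage that chose it, it was at 44.6, 39.5 and 37.7 CPM in WT cells and 36.7, 25.8 and 22.2 CPM in slow/slow cells, which differed by a log2 value of -0.53 (SE 0.13). Replicate 1 was the highest of its group there in both genotypes.

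Rragb was higher in slow/slow cells before the neuron stage and lower in slow/slow neurons, as its exon was. In NPCs it was at 30.8, 28 and 30.5 CPM in WT cells (29.8 ± 1.55) and 51.2, 57.7 and 51 CPM in slow/slow cells (53.3 ± 3.83), a rise by 0.84 on the log2 scale (SE 0.22, FDR 0.00309). In neurons it was at 84, 76.3 and 81.7 CPM in WT cells (80.7 ± 3.94) and 39.7, 41.8 and 38.3 CPM in slow/slow cells (39.9 ± 1.75), a fall by 1.01 (SE 0.22, FDR 0.000696). The groups did not overlap at either stage. In ESCs it was at 22.5, 23.8 and 21.1 CPM in WT cells (22.5 ± 1.3) and 29.9, 30.3 and 30.1 CPM in slow/slow cells (30.1 ± 0.212). The ESC samples were as clearly apart, but the log2 difference of 0.42 (SE 0.22) was not called in the fit of all samples, with an FDR of 0.138. With the block among the PSA-NCAM+ samples the FDR was 2.34e-05, and with ESC samples alone 0.000231.

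In PSA-NCAM+ cells, the stage that chose it, Rragb was at 6.58, 15.1 and 13.4 CPM in WT cells (11.7 ± 4.49) and 25.4, 52.6 and 45.7 CPM in slow/slow cells (41.2 ± 14.2), which is a log2 difference of 1.83 (SE 0.23). Replicate 1 was the lowest of its group in both genotypes, and every slow/slow sample was above every WT sample. The genotype difference of Rragb was lower in neurons than in ESCs by 1.44 on the log2 scale (FDR 0.000998) and lower in neurons than in NPCs by 1.86 (FDR 5.12e-05). Between NPCs and ESCs it differed by 0.42, with an FDR of 0.361, or 0.00149 with the block among the PSA-NCAM+ samples. Rragb has a close relative in Rraga, and how the counting treated reads shared by both was not stated.

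Wdr7 was lower in slow/slow ESCs and lower again in slow/slow neurons. In ESCs it was at 45.5, 46.4 and 39.8 CPM in WT cells (43.9 ± 3.57) and 35.2, 29.4 and 32.6 CPM in slow/slow cells (32.4 ± 2.9), a fall by 0.44 on the log2 scale (SE 0.08, FDR 0.000342) with no overlap. In NPCs the difference was 0.13 (SE 0.08, FDR 0.186) and in PSA-NCAM+ cells -0.06 (SE 0.08, FDR 0.532). In neurons, the stage that chose it, it was at 175, 163 and 165 CPM in WT cells (168 ± 6.36) and 83.9, 82.4 and 73.6 CPM in slow/slow cells (79.9 ± 5.57), which is a log2 difference of -1.07 (SE 0.08). The neuron markers were lower there too, as given above, and their part in it was not tested. The genotype difference was higher in NPCs than in ESCs by 0.57 (FDR 0.00161) and higher in PSA-NCAM+ cells than in ESCs by 0.38 (FDR 0.0238), the latter lost without replicate 2 of WT ESCs, slow/slow ESCs or slow/slow PSA-NCAM+ cells (FDR 0.0529, 0.061 and 0.0629) and with upper-quartile scaling (0.33, FDR 0.0535). Wdr7 shares bases with genes on the opposite strand, among them 117 bases with Txnl1, and whether the counting used strand was not stated.

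From ESCs to neurons Apbb1 and Wdr7 rose in both genotypes, and Rragb and Apbb2 rose in WT cells. Against ESCs, 5 of 5 genes were called in WT neurons (4 higher, 1 lower), beside 82.8% of all genes tested, and 2 of 5 in slow/slow neurons (both higher), beside 82.5%. In WT cells Wdr7 rose 3.82-fold (FDR 2.26e-14), Rragb rose 3.59-fold (FDR 2.14e-07) and Apbb2 rose by 0.41 on the log2 scale (FDR 0.00502, or 0.118 and a change of 0.22 with upper-quartile scaling, which loses the call), while Scrib fell by 0.60 (FDR 9.57e-08). In slow/slow cells Wdr7 rose 2.47-fold (FDR 1.35e-11), and Scrib was at a log2 difference of -0.07 (FDR 0.357), Apbb2 at 0.19 (FDR 0.167) and Rragb at 0.41 (FDR 0.0934). With the block among the PSA-NCAM+ samples the last of these FDRs were 0.0377 for Apbb2 and 8.5e-06 for Rragb.

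The NPC and PSA-NCAM+ stages were compared with ESCs in the same way. In WT cells 2 of 5 were called in NPCs, Wdr7 (-0.59, FDR 4.98e-06) and Apbb2 (-0.29, FDR 0.0473), both lower than in ESCs and beside 65.6% of all genes. The Apbb2 call was lost with upper-quartile scaling (FDR 0.152), with DESeq2 size factors (FDR 0.0598), with no filter on low counts (FDR 0.063) and by DESeq2 (adjusted p = 0.0551), and without replicate 1 or 2 of the WT ESCs or 1 or 3 of the WT NPCs (FDR 0.0522 to 0.142). In WT PSA-NCAM+ cells 3 of 5 were called, Rragb (-0.95, FDR 0.000889), Wdr7 (-0.20, FDR 0.0419) and Scrib (-0.18, FDR 0.025), all lower than in ESCs and beside 71.2%. Without replicate 1 of the WT PSA-NCAM+ cells the Rragb difference was -0.66 and still called, and the Wdr7 and Scrib calls were lost (FDR 0.114 and 0.115). Upper-quartile scaling also lost both (FDR 0.111 and 0.0723), and the Wdr7 call was lost with DESeq2 size factors (FDR 0.0569) and with no filter on low counts (FDR 0.0655). In slow/slow NPCs 3 of 5 were called, beside 62.3%: Apbb1 (0.66, FDR 1.83e-06) and Rragb (0.82, FDR 0.00302) rose and Apbb2 (-0.48, FDR 0.00241) fell. In slow/slow PSA-NCAM+ cells 1 of 5 was called, Apbb1 (0.92, FDR 1.04e-08), beside 73.4%. With the block among the PSA-NCAM+ samples Rragb (0.39, FDR 2.16e-05), Apbb2 (-0.31, FDR 0.00228) and Wdr7 (0.17, FDR 0.0412) were called there as well, and, beyond those, in WT cells Rragb in NPCs (FDR 1.56e-05) and Apbb2 in PSA-NCAM+ cells (FDR 0.0249).

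The difference between the genotypes was tested between pairs of stages that do not include a gene's choosing stage. Between NPCs and ESCs it was called for 2 of 5 genes, beside 24.6% of all genes, and between PSA-NCAM+ cells and ESCs for 2 of 3, beside 27.1%, each time Apbb1 and Wdr7. Between neurons and ESCs it was called for 1 of 2, beside 42.1%, and between neurons and NPCs for 1 of 2, beside 55.1%, each time Rragb. Between PSA-NCAM+ cells and NPCs edgeR called 0 of 3, beside 14.6%, with 1 at an unadjusted p under 0.05. That gene was Scrib, at 0.27 on the log2 scale (FDR 0.0775, or 0.0188 with the block among the PSA-NCAM+ samples, and 0.0172 by DESeq2).

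Between the genes, levels can be compared per length from the deposited RPKM, the authors' mean of each group, whose unit was read from its values. In WT ESCs Scrib was highest at 41.2 RPKM, followed by Apbb1 at 15.7, Rragb at 9.44, Apbb2 at 6.67 and Wdr7 at 5.75 RPKM. In WT neurons Apbb1 led at 114 RPKM, followed by Rragb at 36.6, Scrib at 29.3, Wdr7 at 23.7 and Apbb2 at 9.57 RPKM. In slow/slow neurons the order was Apbb1 at 75.6, Scrib at 37.4, Rragb at 19.9, Wdr7 at 12.4 and Apbb2 at 6.57 RPKM. These group means have no spread over samples, so neighbours in the order were not tested. The genes differ in span, at 22.6 kb for Scrib, 23.2 kb for Apbb1, 32 kb for Rragb, 281 kb for Wdr7 and 320 kb for Apbb2 in GRCm38, beside a median of 23.2 kb over the genes tested.

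**Figure D4:**
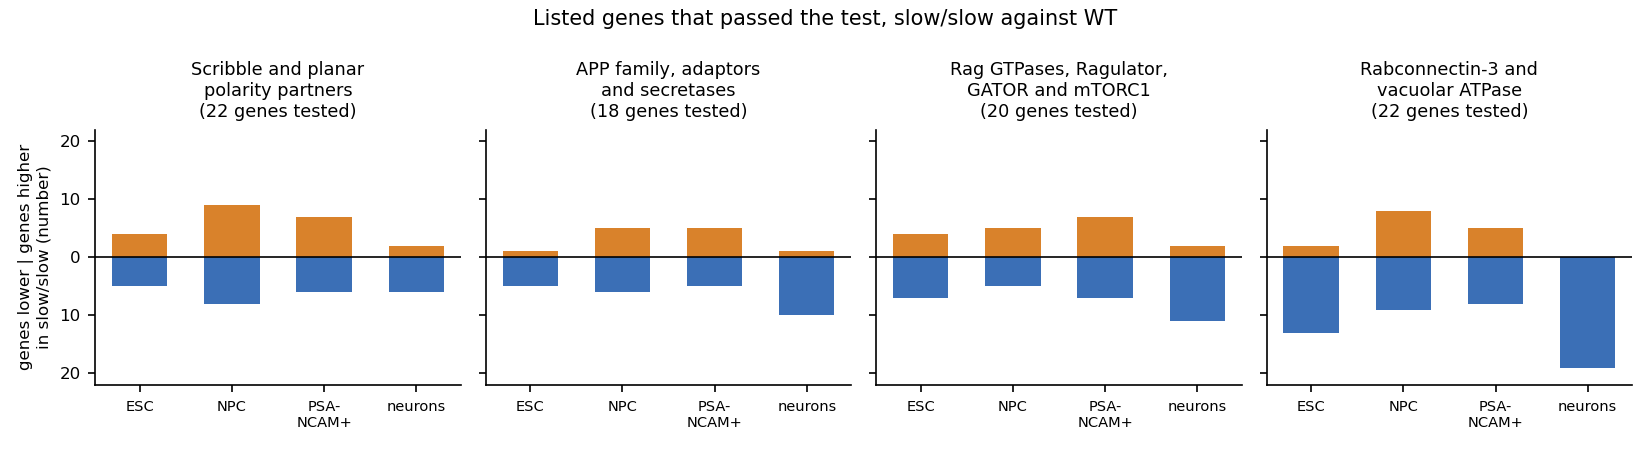
Number of genes of 4 partner lists that were called between the genotypes at each stage, with genes higher in slow/slow cells above 0 and genes lower below 0. In neurons 19 of the 22 Rabconnectin-3 and vacuolar ATPase genes were lower and 0 were higher, while 28.4% of all genes tested were lower and 23.4% higher.

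The partners of the 5 genes were counted from 4 lists that leave out the genes themselves. These lists were chosen with earlier results of these data known. Many genes of every kind were called, so each count stands beside the share over all genes tested. In slow/slow neurons 28.4% of all genes were lower and 23.4% higher, and the shares were 21.9% and 18.5% in ESCs, 27.4% and 29.3% in NPCs, and 28.1% and 28.6% in PSA-NCAM+ cells. The median log2 change of all genes was -0.06 in neurons, -0.02 in ESCs, 0.01 in NPCs and -0.01 in PSA-NCAM+ cells. The neuron markers were lower in slow/slow neurons too, as given above, and their part in the counts of the lists there was not tested.

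Of 22 tested genes of Rabconnectin-3 and the V-ATPase, the complexes that Wdr7 serves, 19 were lower and 0 higher in slow/slow neurons, so that 86.4% were called beside 51.9% of all genes, with a median log2 change of -0.72 beside -0.06. Atp6v0a1, a membrane subunit of the pump, was at 394, 353 and 362 CPM in WT neurons and 145, 152 and 146 CPM in slow/slow neurons, a fall by 1.32 (FDR 8.72e-11). The accessory subunit genes Atp6ap1 and Atp6ap2 fell by 1.29 and 1.18, and Atp6v1g2, a neuronal subunit, fell by 1.27. In ESCs 13 were lower and 2 higher (median -0.36), or 68.2% called beside 40.4% of all genes. In NPCs 9 were lower and 8 higher (median -0.01; 77.3% beside 56.7%), and in PSA-NCAM+ cells 8 were lower and 5 higher (median -0.10), where the 59.1% called was near the 56.7% of all genes. In NPCs Atp6ap2 fell by 1.12, Atp6v1c1 by 0.61 and Atp6v0b by 0.58, and Atp6v1b2 rose by 0.61. With upper-quartile scaling 17 were lower and 0 higher in neurons, with a median of -0.58.

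Of 18 genes of the APP family, APP adaptors and secretases, partners of Apbb1 and Apbb2, 10 were lower and 1 higher in slow/slow neurons (median -0.41). The 61.1% called was near the 51.9% of all genes, but the directions were less even. Of all genes, 28.4% were lower and 23.4% higher, with a median of -0.06. App itself was at 892, 845 and 852 CPM in WT neurons and 444, 444 and 428 CPM in slow/slow neurons, a fall by 0.98 (FDR 0.00671). The neuronal adaptor Apba1 was at 199, 173 and 176 CPM and 67.9, 69.4 and 69.6 CPM, a fall by 1.41 (FDR 6.54e-09), the receptor Lrp1 fell by 1.01, and the App relative Aplp2 fell by 0.76. In NPCs 6 were lower and 5 higher (median -0.22), and the 61.1% called was near the 56.7% of all genes. App fell there by 1.22, from 169, 174 and 185 CPM to 83.4, 69.1 and 73.9 CPM (FDR 0.00121), the γ-secretase subunits Psenen and Aph1b fell by 0.81 and 0.66, and Apba2 rose by 1.14. The counts were 5 lower and 1 higher in ESCs (median -0.08) and 5 lower and 5 higher in PSA-NCAM+ cells (median -0.12), that is 33.3% and 55.6% called beside 40.4% and 56.7% of all genes, and upper-quartile scaling gave 7 lower and 1 higher in neurons (median -0.27).

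Of 20 tested genes of the Rag GTPases, Ragulator, GATOR and mTORC1, 11 were lower and 2 higher in slow/slow neurons (median -0.30), or 9 and 4 with upper-quartile scaling (median -0.16). The 65% called stood beside 51.9% of all genes. Fnip1, Fnip2 and Flcn, which form the folliculin complex that acts on the Rag GTPases, fell by 0.94, 0.90 and 0.75, and Nprl2, a subunit of the inhibitory GATOR complex, fell by 0.64. In NPCs 5 were lower and 5 higher (median 0.05), and the 50% called was near the 56.7% of all genes. Rraga, the relative of Rragb, was at 67.3, 62.7 and 64.6 CPM in WT NPCs and 111, 107 and 108 CPM in slow/slow NPCs, a rise by 0.74 (FDR 6.99e-07). Seh1l and Mios rose there by 0.46 and 0.43, and Nprl2 fell by 0.76. In ESCs 7 were lower and 4 higher (median -0.06), and in PSA-NCAM+ cells 7 were lower and 7 higher (median -0.03), that is 55% and 70% called beside 40.4% and 56.7% of all genes.

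Of 22 tested Scribble and planar polarity partners, 6 were lower and 2 higher in slow/slow neurons (median -0.17), or 4 and 4 with upper-quartile scaling (median -0.03). The 36.4% called was below the 51.9% of all genes. Lrrc7, a scaffold of the same LAP family as Scribble, was at 8.32, 7.72 and 7.45 CPM in WT neurons and 1.82, 1.97 and 1.48 CPM in slow/slow neurons, a fall by 2.15 (FDR 8.31e-05), and the synaptic scaffold gene Dlg2 fell by 1.07. Llgl1, the partner of Scribble in basal polarity, rose by 0.88 (FDR 3.7e-05), and the apical polarity gene Pard3 rose by 0.87 (FDR 1.82e-09). In NPCs 8 were lower and 9 higher (median -0.16), or 77.3% called beside 56.7% of all genes. Llgl2 fell there by 1.46, from 294, 321 and 290 CPM to 122, 98.3 and 108 CPM (FDR 0.000266), and Dlg4 fell by 1.24. Lrrc7 and Dlg2 were called in NPCs as well, but every sample there was under 0.2 CPM. In ESCs 5 were lower and 4 higher (median 0.00), and in PSA-NCAM+ cells 6 were lower and 7 higher (median -0.13), where the 40.9% and 59.1% called were near the 40.4% and 56.7% of all genes.

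Over the 24 samples, the genes whose log2 CPM was most like that of a member were found by Pearson's r, as a description over samples that share stage, genotype and library. For Scrib they were Ly6e (r = 0.924) and Atp5g2 (0.899), both on chromosome 15, and AC120405.1 (0.893). For Apbb1 they were Atp6v1g2 (0.994), Ss18l1 (0.991) and Btbd9 (0.989), for Apbb2 Mical3 (0.973), Zbtb7c (0.964) and Nr1d1 (0.954), for Rragb Zfyve9 (0.932), Gnptab (0.931) and Plcb4 (0.926), and for Wdr7 Zfr (0.988), Trank1 (0.986) and Ankrd12 (0.979). Exon events were compared by PSI where they passed in all samples, 17141 of them for the 75-nt Scrib exon, 17145 for the Apbb1 microexon and 17147 for the Rragb exon. The PSI most like that of the 75-nt Scrib exon belonged to 6-nt exons of Git2 (0.993) and Taf1 (0.99) and a 15-nt exon of Ewsr1 (0.99), and that most like the Apbb1 microexon to a 15-nt exon of Dctn1 (0.999), a 3-nt exon of Mon2 (0.998) and a 9-nt exon of Tacc2 (0.997). For the Rragb exon they were a 33-nt exon of Atp9b (0.95), a 78-nt exon of Reps1 (0.943) and a 24-nt exon of Ocrl (0.938), lower values than for the exons of Scrib and Apbb1. Those of Scrib and Apbb1 were low in every sample before the neuron stage, so their r rests mainly on the neuron samples, the stage that chose these genes. The r values therefore do not rank how alike the exons are.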

How the data were processed

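Poly(A)+ RNA of 24 samples had been sequenced from paired ends with a stranded kit (the labels name bcl2fastq 2.17.1.14 and edgeR). The authors mapped reads to mm9 with vast-tools and deposited raw counts per gene and sample. The deposited RPKM values were the authors' group means. The authors also deposited PSI, a percent value per exon event and sample, and quality scores (other values) with corrected inclusion and exclusion reads. A table of pooled PSI and the authors' own calls was not used. The deposited expression table also holds the authors' own fold changes and FDR, which were not used.

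Counts were tested with edgeR 4.0.16 in R 4.3.3 (filterByExpr, TMM, quasi-likelihood F test, 1 model of 8 groups, FDR under 0.05). Each call of an exon followed the vast-tools diff scheme: beta posteriors of the reads with a prior of 1, pooled over replicates, with a difference above 10 points and a probability above 0.95, the study's threshold being read as 0.95. Microexons were held to the coverage filter, as no balance score is given for them. For differences between stages limma 3.58.1 was run on logits of the reads (0.5 added to each count). Its calls of such differences needed an FDR under 0.05, and those between groups a change above 10 points as well. Tests were also tried on simulated data. DESeq2 1.42.0, other scalings, filters and single replicates left out were alternatives.

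The members and lists were chosen with earlier results of these data known. Named exons are those with group means that span 10 points or more over the groups where they pass. Up to 4 called genes per partner list with the largest change in NPCs and in neurons are named, and the 3 genes and exon events most alike by r were computed. Replicate numbers, which come from the sample titles, paired the samples in PSA-NCAM+ cells only, where same-numbered samples deviated together (r of 0.40 to 0.54 for log2 CPM), against -0.08 to 0.07 at the other stages. Depth of 32974432 to 104466886 counts sets the precision. Intervals over reads would cover counting error only.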

Additional observations from a re-analysis of the deposited data

Results flagged for a closer look

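The difference between the genotypes differed between stages, by the interaction test, for 3 genes. For Apbb1 it was higher by 0.62 on the log2 scale in NPCs than in ESCs (edgeR FDR 0.00115) and by 0.86 in PSA-NCAM+ cells than in ESCs (FDR 2.78e-05), where its expression was lower in slow/slow ESCs and higher in slow/slow PSA-NCAM+ cells. For Wdr7 it was higher by 0.57 in NPCs than in ESCs (FDR 0.00161) and by 0.38 in PSA-NCAM+ cells than in ESCs (FDR 0.0238), a call lost with upper-quartile scaling (0.33, FDR 0.0535) and without replicate 2 of WT ESCs, slow/slow ESCs or slow/slow PSA-NCAM+ cells. For Rragb it was -1.44 in neurons against ESCs (FDR 0.000998) and -1.86 in neurons against NPCs (FDR 5.12e-05). The 84-nt exon of Rragb moved the same way, by -28.0 points in neurons against ESCs (limma FDR 0.000178) and -38.9 points in neurons against NPCs (limma FDR 6.16e-07). The FDRs are for differences of logits, and in WT neurons this exon was near the top of the PSI scale.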

How the results depend on the processing

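No alternative turned the direction of a called result. Of the alternatives for counts of calls over the 5 genes, 200 stayed within 1.5 times, 7 were higher and 16 lower. A minimum of 2-fold left 1 call of expression between the genotypes in neurons and 0 at each of the other stages, and 3 calls (WT) and 2 calls (slow/slow) for later stages against ESCs. In PSA-NCAM+ cells the single call of expression became 2 with upper-quartile scaling, 2 with DESeq2 size factors and 2 by DESeq2, as Scrib joined, and 0 with PSA-NCAM+ samples alone, and leaving out single replicates gave 1 to 2 (2 without replicate 1 of the WT PSA-NCAM+ cells). For later stages against ESCs, 10 calls in WT cells became 6 with upper-quartile scaling, as Apbb2 in NPCs and neurons and Scrib and Wdr7 in PSA-NCAM+ cells were lost, and 8 to 10 with single replicates left out, and 6 calls in slow/slow cells became 6 to 9. For exons, limma, with the same minimum of 10 points, called 1 in ESCs and 1 in NPCs in place of 2 each. It called 2 in place of 4 in WT later stages, and a minimum of 15 points left 1 in NPCs. Neurons went from 0 to 1 only without replicate 3 of slow/slow neurons (0 to 1 over all single replicates).

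With the replicate number as a block over all samples, limma called 1 exon in ESCs, 1 in NPCs and 2 in WT later stages, while the 6 expression differences between stages stayed 6. The replicate block within PSA-NCAM+ cells, added after the data were seen, gave 2 calls of expression in PSA-NCAM+ cells, 11 in slow/slow later stages and 1 limma exon call in ESCs, and the pairing changed no other call beyond those given in the report. Leaving out replicate 1 of both genotypes in PSA-NCAM+ cells, also added, gave 1 and 9 calls of expression for those same comparisons. Over all features, PSA-NCAM+ samples alone gave 3641 genes between the genotypes in place of 9424, and without replicate 1 there were 582 exon events in place of 235, while limma gave 56 in ESCs in place of 163. Single libraries decided several calls against ESCs. In WT cells the Apbb2 fall in NPCs was lost without replicate 1 or 2 of the ESCs or 1 or 3 of the NPCs, the Scrib fall in PSA-NCAM+ cells without replicate 3 of the ESCs or 1 of the PSA-NCAM+ cells, and the Wdr7 fall there without replicate 1 or 2 of the ESCs or 1 or 3 of the PSA-NCAM+ cells. In slow/slow PSA-NCAM+ cells, Rragb (0.71) and Apbb2 (-0.51) were called without replicate 1, Wdr7 without replicate 1 or 3 or replicate 1 of the ESCs, and the 63-nt Scrib exon without replicate 2 (-18.2 points) or 3 (-17.5 points). Both calls of that exon keep replicate 1, whose PSI was 66.8, beside 98.3 and 96.9 for replicates 2 and 3, and so rest on it. The 84-nt Scrib exon was called between WT NPCs and ESCs without replicate 3 of the NPCs (10.2 points), and the Scrib difference between PSA-NCAM+ cells and NPCs without replicate 3 of the WT or replicate 1 of the slow/slow PSA-NCAM+ cells. The Apbb2 exon rests on 16 to 128 reads per sample. Causes of these shifts were not tested.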
